A study of Homo sapiens with 12 samples.

Results

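The Müllerian and mesothelial lineage genes described here are 10 genes, PAX8, WT1, ESR1, EMX2, SOX17, MECOM, MSLN, FOLR1, UPK3B and CALB2, chosen by their gene symbols. They were chosen with earlier results of these data known, so counts of calls and medians over them describe these genes only. All 10 of them were found among the 57500 genes of the deposited count table. The study sequenced ribosomal RNA-depleted RNA of 3 established human lines in 12 libraries, that is 4 groups with 3 biological replicates in each. The ovarian cancer line PEO4 was grown in RPMI medium alone (control) or with recombinant human TGF-β at 10 ng/mL for 6 days. SW480, from a primary colorectal tumour, and SW620, from a metastasis of the same patient, were grown untreated in DMEM, so the medium and the tissue cannot be told apart in any contrast of PEO4 with them. All media held serum and antibiotics, and each line stands for a single tumour.

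The epithelium of the fallopian tube, uterus and ovarian surface arises from the coelomic lining of the embryo, the tissue that also gives the mesothelium of the abdominal cavity. PAX8, EMX2 and SOX17 are transcription factors of the Müllerian duct, WT1 marks both mesothelium and serous tumours of the ovary and tube, and ESR1 encodes oestrogen receptor α. MSLN and FOLR1 encode the surface proteins mesothelin and folate receptor α, which are drug targets in ovarian cancer, whereas UPK3B and CALB2 (calretinin) are used as mesothelial markers. The levels below are CPM, the counts per 1000000 counts of a library, unless they are said to be per kilobase of exon.

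Library totals ran from 14531420 to 22028956 counts, and 3 counts, the limit that a count of 0 allows, corresponded to between 0.136 and 0.206 CPM. These limits cover counting error only. The intestinal factor CDX2 had at most 3 counts in each PEO4 library and at least 292 in each SW480 and SW620 library. Of 11 TGF-β-induced genes found in the table, 10 were tested in PEO4, and 4 were higher and 0 lower with TGF-β (LTBP2, THBS1, TGFBI and PMEPA1), with log2 changes from 2.32 to 2.74. The THBS1 call was lost without control replicate 2 (edgeR adjusted p = 0.0577) and the PMEPA1 call without control replicate 2 or TGF-β replicate 1 or 2 (up to 0.122). Markers of blood, endothelium and fibroblasts summed to between 6.09 and 8.52 CPM over 9 genes in the PEO4 libraries, and 0 of the 5 tested passed the threshold in either direction with TGF-β. Of 15 intestinal genes, 5 were tested in PEO4 and 1 rose, EPHB2 (2.05 ± 0.20, adjusted p = 0.00233 by edgeR).

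Sequence was taken from RefSeq (GRCh38.p14), whose promoter table matched 6 of the 10 genes. The 250 bases before the start are shown for UPK3B, the lineage gene that fell most with TGF-β, for WT1, which fell and starts beside an antisense gene, and for PAX8, which did not pass the test. They lie at chr7:76510302-76510551 (plus strand), chr11:32435540-32435789 (minus strand) and chr2:113278922-113279171 (minus strand). Capitals mark CAGAC, the core that SMAD proteins bind, searched with its reverse complement GTCTG.
UPK3B: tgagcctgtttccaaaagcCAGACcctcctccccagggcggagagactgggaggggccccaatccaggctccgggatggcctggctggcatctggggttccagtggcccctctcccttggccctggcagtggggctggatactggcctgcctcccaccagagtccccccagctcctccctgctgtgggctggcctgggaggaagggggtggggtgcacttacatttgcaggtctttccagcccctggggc
WT1: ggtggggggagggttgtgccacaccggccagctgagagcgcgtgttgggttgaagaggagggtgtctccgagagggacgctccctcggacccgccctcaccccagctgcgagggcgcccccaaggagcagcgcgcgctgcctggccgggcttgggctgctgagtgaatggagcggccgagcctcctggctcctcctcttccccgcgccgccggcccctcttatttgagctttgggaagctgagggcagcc
PAX8: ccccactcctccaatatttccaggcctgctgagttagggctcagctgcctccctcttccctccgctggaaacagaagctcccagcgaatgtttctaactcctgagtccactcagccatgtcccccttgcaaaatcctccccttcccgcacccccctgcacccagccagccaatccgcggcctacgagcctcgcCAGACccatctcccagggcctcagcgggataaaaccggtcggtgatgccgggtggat
The UPK3B and PAX8 windows each held CAGAC 1 time and the WT1 window 0 times. Over all 35116 promoter windows of the same length, 38.0% held it. The GC-rich SMAD site GGCGC (reverse complement GCGCC) was matched 3 times in the WT1 window, 0 times in the UPK3B and PAX8 windows and in 44.5% of all windows. Matches on both strands were counted, and the stretch GGCGCC in the WT1 window gave overlapping ones, so it holds fewer separate sites than matches. The RefSeq starts differ from the outermost GENCODE 29 starts of these genes by 124 bases for UPK3B, 91 for WT1 and 29 for PAX8, so each window covers 1 of several annotated starts.

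Per kilobase of exon, the order of levels in untreated PEO4 began with MSLN at 233 ± 25.2 CPM per kilobase (SD, n = 3). PAX8 at 68.8 ± 1.34 and UPK3B at 64.0 ± 6.40 CPM per kilobase followed, and their libraries overlapped in range. WT1 stood at 48.0 ± 2.20, EMX2 at 30.7 ± 3.00, ESR1 at 17.8 ± 0.903 and FOLR1 at 7.06 ± 1.56 CPM per kilobase. SOX17, CALB2 and MECOM were each under 1 CPM per kilobase, and MECOM, whose protein is a zinc finger regulator often amplified in serous ovarian cancer, had at most 3 counts in every control library. Each of the 7 leading genes had at least 174 counts in every control library, SOX17 had 27 to 32, and the mesothelial marker CALB2 had 2 to 9. Among 20 other mesothelial genes, ITLN1 and TCF21 were at 0 in all 6 PEO4 libraries, and among 24 other Müllerian and serous genes PAX2 and LHX1 had at most 3 counts in each. In bulk libraries fewer cells with a transcript and less RNA per cell cannot be told apart, and this holds for every level given here.

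**Figure D1:**
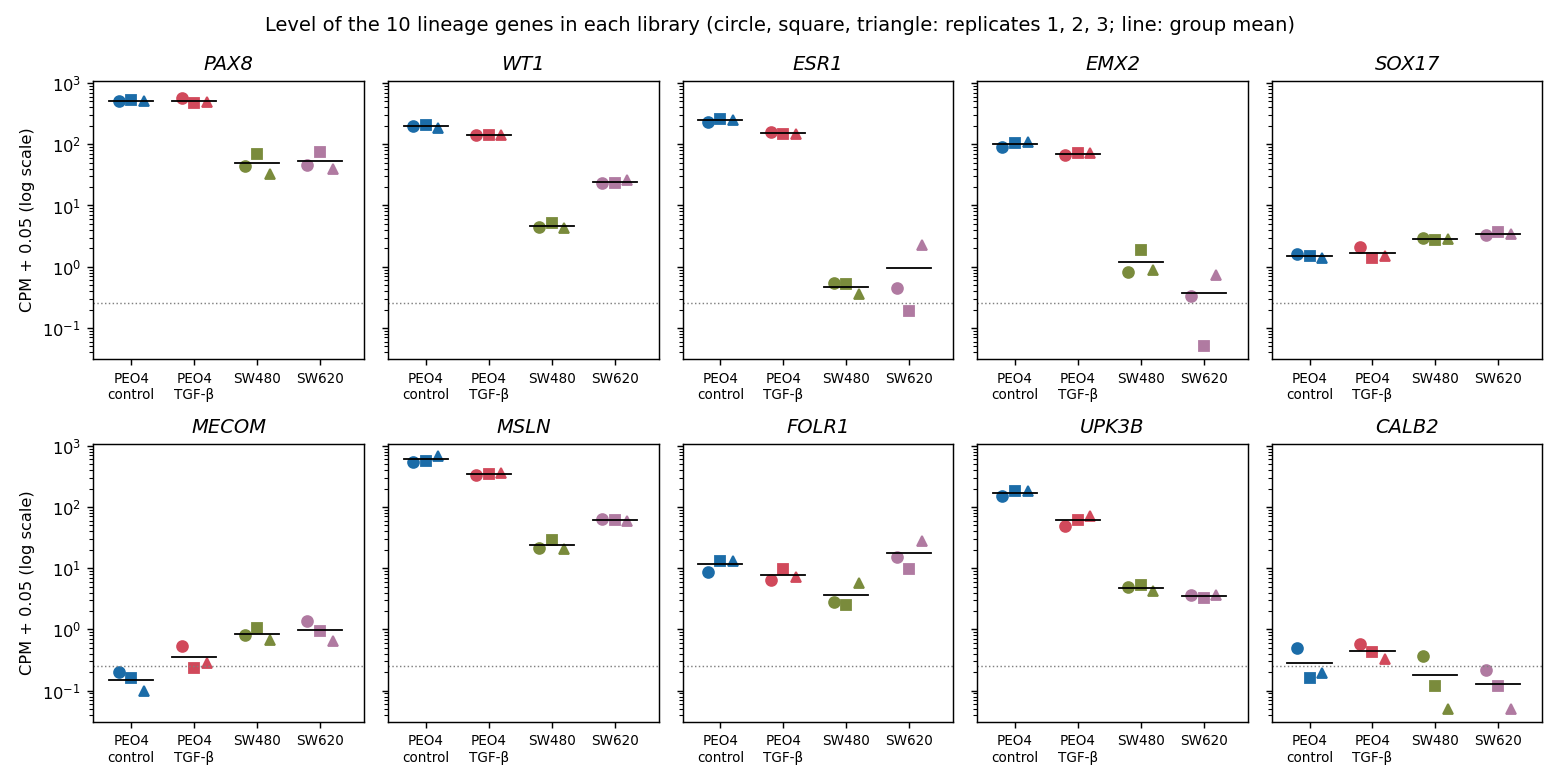
Level of each gene in each of the 12 libraries, as CPM plus 0.05 on a log scale, with replicates 1, 2 and 3 as circles, squares and triangles and the group mean as a line; the dotted line marks 3 counts in the shallowest library. UPK3B, MSLN, ESR1, EMX2 and WT1 had all 3 TGF-β libraries under all 3 control libraries, while PAX8 stayed near 500 CPM in both.

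TGF-β was set against control medium in PEO4 to ask which genes respond to the cytokine. Of the 10 lineage genes, 5 fell with TGF-β, 0 rose, 3 were tested and had no call (PAX8, FOLR1, SOX17), and MECOM and CALB2 were too low to be tested. Over all 19064 genes tested, 2.26% passed the threshold, 1.27% as higher and 0.991% as lower. The libraries of the 2 groups did not overlap for 5 of the 8 tested lineage genes and for 20.7% of all genes tested. The median log2 change was -0.53 over the 8 tested lineage genes and -0.02 over all genes tested. The fits used edgeR's quasi-likelihood test with Benjamini-Hochberg adjustment over all genes and a threshold of 0.05, and the 8 genes passed a low-count filter that MECOM and CALB2 missed in both groups. The authors' deposited table listed 8 of the 10 genes and also gave 5 of them as lower and 0 as higher.

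UPK3B, which encodes uroplakin 3B of the mesothelial surface, had 151, 180 and 180 CPM in the control libraries and 49.1, 62.2 and 72.1 CPM with TGF-β. All TGF-β libraries were below all control libraries, with a wide gap between the highest treated and the lowest untreated one. It fell by 1.46 ± 0.13 on the log2 scale (SE), a 2.76-fold decrease (95% normal interval of the log2 change -1.71 to -1.22, adjusted p = 0.00145 by edgeR). The 95% intervals of log2 changes given here take the normal curve, so they are narrower than the edgeR test would give. Its near copy UPK3BL1 had 20 to 54 counts per PEO4 library, against 1009 to 3692 of UPK3B, and did not pass the test (0.64 ± 0.28, adjusted p = 0.297 by edgeR).

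MSLN, which encodes a glycosylphosphatidylinositol-linked adhesion protein, had 548, 572 and 670 CPM in control and 328, 345 and 362 CPM with TGF-β. The groups did not overlap, and the treated libraries lay close together. MSLN fell by 0.77 ± 0.09 on the log2 scale (adjusted p = 0.00375 by edgeR). MSLNL, a neighbouring paralog on the opposite strand with no exonic overlap, went from 24.1 ± 7.38 to 13.5 ± 1.59 CPM (SD, n = 3), a log2 difference of -0.81 ± 0.19 that did not pass the threshold (adjusted p = 0.061 by edgeR). It passed with DESeq2 (adjusted p = 0.0017), without a filter (3.59e-05), with the replicate number as a block (0.000732) and without control replicate 1 (0.00725), and the authors' deposited table gives an adjusted p of 0.00206.

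ESR1 had 233, 256 and 251 CPM in control and 158, 145 and 148 CPM with TGF-β. Every treated library was below every control library. ESR1 fell by 0.69 ± 0.08 on the log2 scale (adjusted p = 0.0041 by edgeR). The UPK3B, MSLN and ESR1 calls were each kept when any 1 of the 6 libraries was left out, whereas the ESR1 call was lost when all 12 libraries shared 1 model (adjusted p = 0.7 by edgeR).

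EMX2, a homeobox factor of the urogenital tract, had 89.3, 103 and 108 CPM in control and 65.9, 73.2 and 72.4 CPM with TGF-β, without overlap. It fell by 0.49 ± 0.09 on the log2 scale (adjusted p = 0.0235 by edgeR). WT1, a zinc finger factor, had 202, 203 and 187 CPM in control and 139, 144 and 140 CPM with TGF-β, also without overlap, and it fell by 0.47 ± 0.09 (adjusted p = 0.0274 by edgeR). These are the smallest of the 5 decreases, and both calls were lost in most fits on 5 libraries. The EMX2 call was lost without control replicate 2 or 3 or any of the TGF-β replicates (adjusted p from 0.0702 to 0.13), and the WT1 call without control replicate 2 or any TGF-β replicate (0.0922 to 0.15), by edgeR with the directions unchanged. With all 12 libraries in 1 model the edgeR adjusted p was 0.759 for EMX2 and 0.302 for WT1.

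PAX8, a paired-box factor on which many ovarian cancer cells depend, had 500, 520 and 508 CPM in control and 564, 477 and 499 CPM with TGF-β. The treated libraries spanned the control libraries. The log2 difference was 0.03 ± 0.09 with a 95% normal interval from -0.15 to 0.21 (adjusted p = 0.911 by edgeR), an interval that leaves out the change of each of the 5 genes that fell. FOLR1, which brings folate into cells, had 8.67, 13.2 and 13.1 CPM in control and 6.43, 9.67 and 7.15 CPM with TGF-β, so the groups overlapped (-0.56 ± 0.21, adjusted p = 0.227 by edgeR). SOX17, an endodermal and Müllerian factor, had 27 to 32 counts in control and 29 to 42 with TGF-β (0.15 ± 0.30, adjusted p = 0.844 by edgeR). MECOM had 1 to 3 counts in control and 4 to 10 with TGF-β, and CALB2 2 to 9 and 6 to 11 counts, levels at which no difference was tested.

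**Figure D2:**
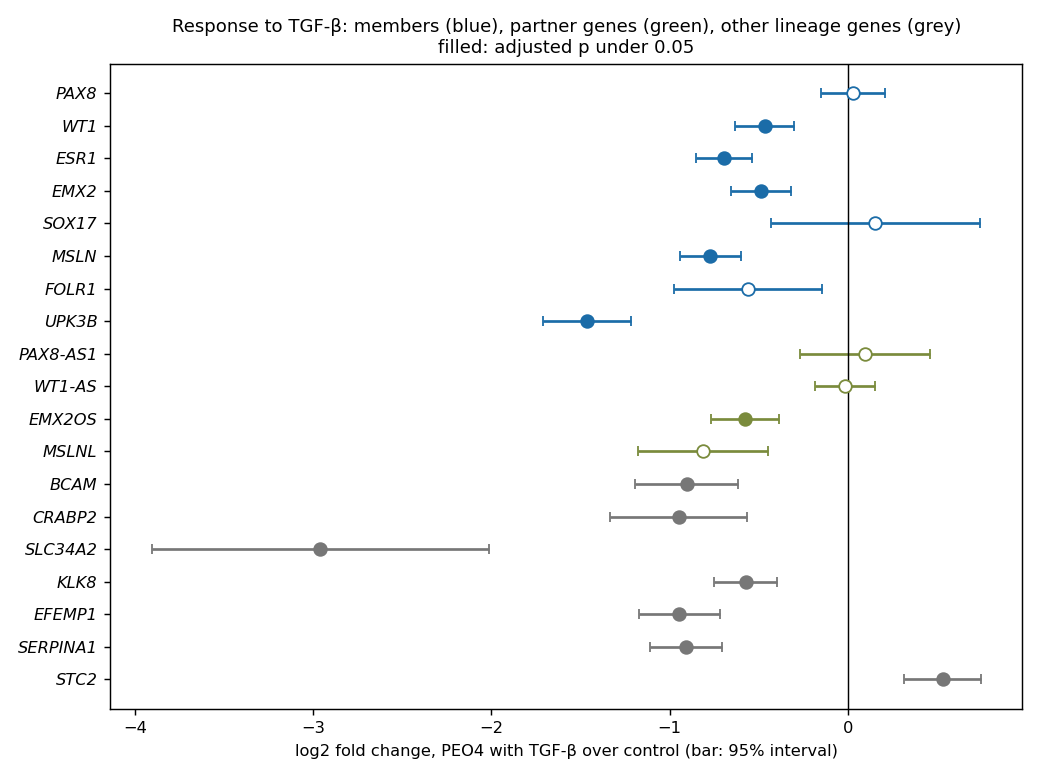
Log2 fold change of TGF-β over control in PEO4 with bars of the 95% normal interval, which is narrower than the edgeR test would give, for the 8 tested lineage genes (blue), their partner genes (green) and the called genes of the Müllerian, mesothelial and oestrogen lists (grey); filled points passed the threshold. UPK3B, MSLN, ESR1, EMX2 and WT1 lie left of 0, whereas PAX8 and WT1-AS sit at 0.

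Of 24 other Müllerian and serous genes, 17 were tested, 4 fell and 0 rose with TGF-β, with a median log2 change of -0.44. SLC34A2, the phosphate transporter NaPi2b, had 24, 70 and 76 counts in control and 8, 7 and 8 with TGF-β (-2.96 ± 0.48, adjusted p = 0.018 by edgeR). The surface protein BCAM fell from 1823 ± 292 to 963 ± 176 CPM (-0.90 ± 0.15, adjusted p = 0.0176), the retinoic acid carrier CRABP2 from 183 ± 29.9 to 93.3 ± 26.1 CPM (-0.95 ± 0.20, adjusted p = 0.0444) and the protease KLK8 from 38.7 ± 3.84 to 25.7 ± 1.32 CPM (-0.57 ± 0.09, adjusted p = 0.0154), all by edgeR (SD, n = 3). Each of these 4 calls was lost in 2 to 5 of the 6 edgeR fits on 5 libraries, where the adjusted p reached 0.109 for SLC34A2 and BCAM, 0.211 for CRABP2 and 0.0977 for KLK8. All 4 were lost without control replicate 2 or TGF-β replicate 1, CRABP2 and KLK8 also without control replicate 3, SLC34A2 and KLK8 without TGF-β replicate 2, and those 3 without TGF-β replicate 3. With all 12 libraries in 1 model BCAM (0.198), CRABP2 (0.312) and KLK8 (0.27) had no call, nor had SLC34A2 with limma-voom (adjusted p = 0.0661). The direction held in all of those fits.

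Of 20 other mesothelial genes, 14 were tested and 1 fell, EFEMP1, which encodes the matrix protein fibulin-3. It had 16.8, 17.1 and 18.7 CPM in control and 9.40, 9.06 and 8.50 CPM with TGF-β, without overlap (-0.95 ± 0.12, adjusted p = 0.00524 by edgeR, and 0.0949 with all 12 libraries in 1 model). The median over the 14 was -0.23, and the summed level of all 20 was 413 to 513 CPM in control and 343 to 459 CPM with TGF-β, ranges that overlap. The other tested genes of the list had no call.

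Downstream of ESR1, 12 of 15 oestrogen receptor target genes were tested, and 1 rose and 1 fell. STC2, a secreted glycoprotein, rose from 216 ± 28.1 to 309 ± 40.7 CPM (0.53 ± 0.11, adjusted p = 0.0444 by edgeR), a call lost with total-count scaling (0.0635), with all 12 libraries in 1 model (0.381) and in 5 of 6 fits without 1 library, all but the one without control replicate 1 (adjusted p up to 0.18). SERPINA1, which encodes α1-antitrypsin, fell from 88.6 ± 12.3 to 46.6 ± 1.69 CPM (-0.91 ± 0.10, adjusted p = 0.00375 by edgeR, and 0.187 with all 12 libraries in 1 model). The median of the 12 was -0.14, and the targets had no common direction of calls. ESR2, the other oestrogen receptor, was at 0.916 ± 0.423 CPM in control and 0.819 ± 0.188 with TGF-β. Around FOLR1, 11 of 14 genes of folate uptake and use were tested and 0 passed the threshold, with a median of 0.05, among them the carriers SLC19A1 (0.10 ± 0.13, adjusted p = 0.747) and SLC46A1 (0.05 ± 0.16, adjusted p = 0.92) by edgeR. Of the 13 paralogs found in the table, 6 were tested and 0 passed.

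WT1, EMX2 and PAX8 each have an annotated RNA gene on the opposite strand. WT1-AS starts 21 bases past the RefSeq start of WT1, and the exons of the pair overlap by 113 bases, 2.75% of the WT1 exons (GENCODE 29, GRCh38). EMX2OS overlaps EMX2 by 255 exonic bases (7.82%) and PAX8-AS1 overlaps PAX8 by 685 (9.26%). The strand setting of the counting is not given in the sources used here, so counts from these stretches could belong to either gene.

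WT1-AS had 33.1, 33.6 and 37.2 CPM in control and 35.1, 30.7 and 35.8 CPM with TGF-β, with overlapping libraries and no call (-0.02 ± 0.09, adjusted p = 0.939 by edgeR). The ratio of WT1 to WT1-AS counts was 5.72 ± 0.612 in control and 4.20 ± 0.431 with TGF-β (SD, n = 3). The ratios did not overlap between groups, and the two-sided exact permutation p of 0.1 is the smallest that 3 against 3 libraries can give (0.35 after adjustment over the 7 ratios compared). EMX2OS fell with EMX2, from 215, 268 and 275 CPM to 155, 168 and 179 CPM (-0.58 ± 0.10, adjusted p = 0.0201 by edgeR), a call lost in 5 of the 6 fits without 1 library, all but the one without control replicate 1 (adjusted p up to 0.114), and with all 12 libraries in 1 model (0.831). The EMX2 to EMX2OS ratio was 0.398 ± 0.0156 in control and 0.421 ± 0.0159 with TGF-β, a difference within overlapping libraries (exact permutation p = 0.2). The MSLN to MSLNL ratio was 25.8 ± 5.54 and 25.6 ± 2.02, so no shift between these neighbours was seen although MSLN fell.

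**Figure D3:**
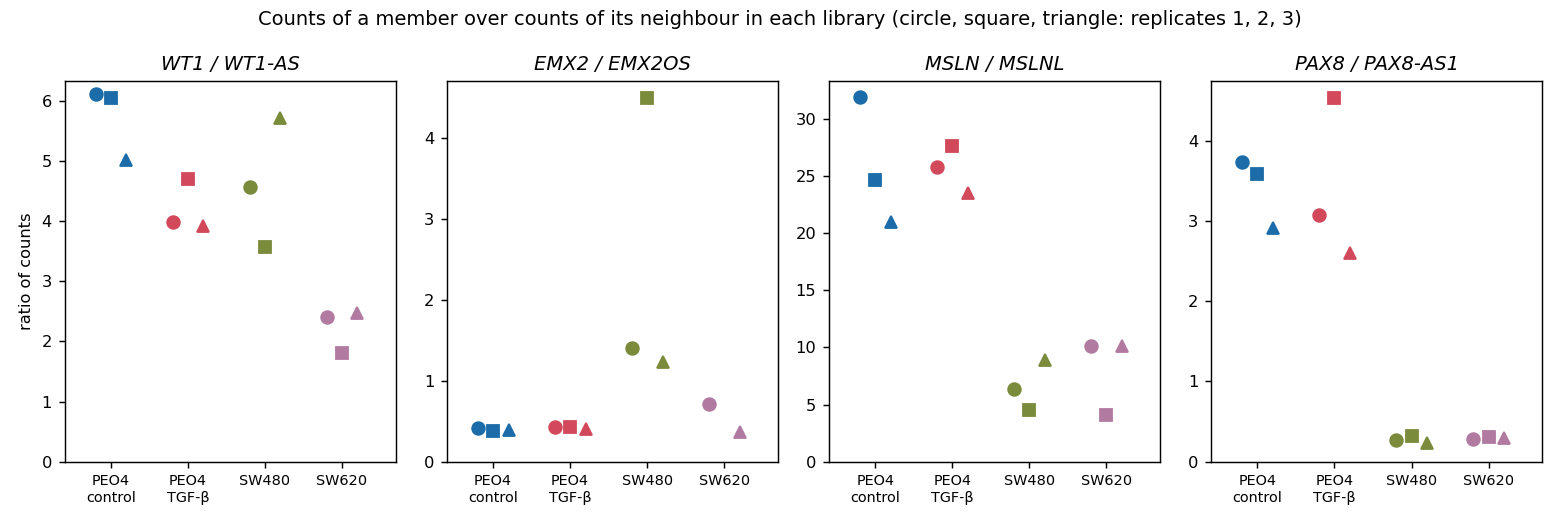
Ratio of counts of WT1, EMX2, MSLN and PAX8 to those of WT1-AS, EMX2OS, MSLNL and PAX8-AS1 in each library, on linear axes from 0, with replicates as circles, squares and triangles; the SW620 replicate with 0 EMX2OS counts has no EMX2 point. The WT1 ratio is lower in all TGF-β than in all control libraries and lowest in SW620, and the PAX8 ratio is near 3.4 in PEO4 and near 0.3 in both SW lines.

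The colorectal lines were then compared with the untreated PEO4 libraries, which also served as controls for TGF-β, so the contrasts share them. Of 9 lineage genes tested, 7 were higher and 1 lower in PEO4 than in SW480, and 6 were higher and 2 lower than in SW620. Of all 22936 genes tested, 53.6% passed against SW480 (25.7% higher in PEO4, 27.9% lower) and 55.2% against SW620 (28.0% higher, 27.2% lower). The libraries did not overlap for 9 of the 9 genes against SW480 (66.4% of all genes) and for 8 of the 9 against SW620 (62.0%), the exception being FOLR1. The median log2 difference was 4.92 over the 9 genes against SW480 and 3.60 against SW620, and over all tested genes it was -0.10 and -0.06. Of 24 other Müllerian and serous genes 23 were tested, with 15 higher and 7 lower in PEO4 than in SW480 and 15 higher and 6 lower than in SW620. Of 20 other mesothelial genes 15 were tested, with 9 higher and 3 lower than in SW480 and 8 higher and 2 lower than in SW620.

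ESR1 showed the largest difference from SW480, with 6 to 9 counts in SW480 against 4668 to 5131 counts in control PEO4 (9.41 ± 0.64, adjusted p = 1.67e-07 by edgeR). EMX2 was 6.74 ± 0.43 log2 units and UPK3B 5.41 ± 0.18 units higher in PEO4 than in SW480, and 8.36 and 5.91 units higher than in SW620. UPK3B nevertheless kept 47 to 90 counts in each SW library, well over the floor. PAX8 was 3.65 ± 0.25 log2 units higher in PEO4 than in SW480 (adjusted p = 1.8e-07 by edgeR), yet SW480 had 44.0, 69.3 and 33.1 CPM and SW620 46.5, 73.6 and 38.8 CPM of it.

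PAX8-AS1 was plentiful in all groups, at 173 ± 41.0 CPM in SW480, 177 ± 55.6 in SW620 and 151 ± 21.1 in control PEO4 (SD, n = 3). It had no call against either SW line, and the sign of the difference depended on the scaling (0.06 ± 0.19 and 0.11 ± 0.19 log2 units with TMM factors, -0.20 and -0.23 with total counts). The ratio of PAX8 to PAX8-AS1 was 3.41 ± 0.442 in control PEO4, 0.275 ± 0.0406 in SW480 and 0.297 ± 0.00967 in SW620. In the SW libraries PAX8-AS1 thus held most of the counts of the pair. Within each SW line the replicate with the most PAX8 (replicate 2) also had the most PAX8-AS1. Replicate 2 was likewise highest for MSLNL (93 counts in SW480 and 213 in SW620), which shares no exonic bases with MSLN. The pattern is thus not particular to the PAX8 pair, and its cause was not tested. Since strand use is unknown, PAX8 counts in the SW lines could include reads from the shared stretch.

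The lineage genes with the reverse order were MECOM and SOX17. MECOM had 12 to 15 counts in SW480 and 13 to 23 in SW620, against at most 3 in each control PEO4 library. The means of the SW lines were 5.24-fold and 6.07-fold a level of 3 counts. The log2 differences of PEO4 from SW480 and SW620 were -2.64 and -2.78 (adjusted p = 0.00297 and 0.00188 by edgeR). Without 1 library they ran from -3.04 to -2.28 and from -3.18 to -2.42, so counts this low set no firm lower limit. SOX17 had 39 to 54 counts in SW480, 53 to 74 in SW620 and 27 to 32 in control PEO4. It was lower in PEO4 than in SW620 (-0.91 ± 0.30, adjusted p = 0.023 by edgeR), a call lost without control replicate 2 (0.0694) or 3 (0.0795) or SW620 replicate 3 (0.062) or without a filter (0.0878). The difference from SW480 did not pass (-0.68 ± 0.31, adjusted p = 0.0785 by edgeR), but did with total-count scaling (0.0239) or at least 10 counts in every library (0.0362). FOLR1 was higher in PEO4 than in SW480 (1.87 ± 0.47, adjusted p = 0.0047) and had no call against SW620 (-0.37 ± 0.43, adjusted p = 0.494), by edgeR. CALB2 had at most 6 counts in any SW library and was not tested.

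SW620 and SW480 were compared as the metastatic and primary lines of 1 patient. Of 8 lineage genes tested, 3 were higher in SW620 (WT1, FOLR1 and MSLN) and 0 lower. Of all 20941 genes tested, 30.5% passed, 13.5% as higher and 17.0% as lower in SW620. The libraries of the lines did not overlap for 6 of the 8 lineage genes and for 46.0% of all genes. The median over the 8 genes was 0.21 and over all genes tested 0.03. The authors' deposited table likewise gave 3 of 9 listed lineage genes as higher and 0 as lower.

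WT1 had 82, 75 and 80 counts in SW480 and 414, 339 and 572 in SW620, with means of 4.57 and 24.2 CPM. The lines did not overlap (2.38 ± 0.21, adjusted p = 4.59e-05 by edgeR). WT1-AS differed by 3.38 ± 0.30 log2 units in the same direction (adjusted p = 5.46e-05), from 14 to 21 counts in SW480 to 172 to 232 in SW620. The ratio of WT1 to WT1-AS was 4.61 ± 1.07 in SW480 and 2.23 ± 0.361 in SW620, without overlap (exact permutation p = 0.1, the smallest possible).

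MSLN had 21.7, 28.3 and 20.5 CPM in SW480 and 63.7, 60.1 and 58.5 CPM in SW620, again without overlap (1.34 ± 0.16, adjusted p = 0.000324 by edgeR). FOLR1 had 2.76, 2.45 and 5.75 CPM in SW480 and 15.4, 9.57 and 27.8 CPM in SW620, where the spread between replicates was wide in both lines but the lines did not overlap (2.26 ± 0.53, adjusted p = 0.0105 by edgeR). The other 5 tested genes had no call. PAX8 differed by 0.07 ± 0.25, SOX17 by 0.25 ± 0.30, MECOM by 0.16 ± 0.47, UPK3B by -0.48 ± 0.28 and EMX2 by -1.65 ± 0.87 (adjusted p from 0.194 for EMX2 to 0.874 for PAX8, by edgeR).

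Other genes of these lineages moved in both directions between the colorectal lines. Of 24 other Müllerian and serous genes, 19 were tested, with 1 higher (OVGP1, oviductal glycoprotein, 3.30 ± 0.38) and 6 lower in SW620, among them CRABP2 (-3.44 ± 0.38). Of 20 other mesothelial genes, 10 were tested, with 2 higher and 2 lower, and KRT5, a basal and mesothelial keratin, went from 1742 ± 422 CPM in SW480 to 7.10 ± 5.39 in SW620 (-8.10 ± 0.74, adjusted p = 6.19e-05 by edgeR). The calls of these wider lists thus went in both directions.

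One library stood apart in the genes that mark PEO4. ESR1 had 7 and 2 counts in SW620 replicates 1 and 2 and 48 in replicate 3, EMX2 had 5, 0 and 15 counts, and EMX2OS had 7, 0 and 41. To size this without the lineage genes, 7 other genes were used that had at least 20 CPM in every PEO4 library and 0 counts in SW620 replicates 1 and 2. Their 71 counts in SW620 replicate 3 amounted to 1.13% of what a PEO4 library would give (95% Poisson interval 0.881 to 1.42%, counting error only). The same measure gave 0% (up to 0.820%), 0.387% (0.106 to 0.991%) and 0.323% (0.148 to 0.612%) in SW480 replicates 1, 2 and 3, from 1 to 4 genes each, and no gene met the rule in SW620 replicates 1 and 2. Over 50 genes chosen for their low level in the other SW line, a rule added after the first was seen to leave few genes, the median level was 1.13% of PEO4 in SW620 replicate 3, 0.216% and 0.0577% in SW620 replicates 1 and 2, and 0.438 to 0.596% in SW480. What brought these counts into the library was not tested.

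At a PEO4 share of 1.13%, SW620 replicate 3 would hold 49.4 counts of ESR1, 21.2 of EMX2 and 52.3 of EMX2OS, against the 48, 15 and 41 counts seen. These figures use the mean profile of all PEO4 libraries, with which the share gave at least the whole count of these 3 genes. With the control profile alone the share gave 61.3 counts of ESR1, 24.9 of EMX2 and 62.9 of EMX2OS. With the TGF-β profile alone it gave 37.5, 17.5 and 41.7, so ESR1 then fell short of the 48 seen. For UPK3B the share gave 28.8 of 79 counts (36.4%), for PAX8 127 of 855 (14.9%), for MSLN 117 of 1289 (9.09%) and for WT1 42.1 of 572 (7.36%). The UPK3B figure was 42.3 counts with the control profile and 15.2 with the TGF-β profile. For FOLR1 the share gave 2.41 of 612 counts (0.394%) and for SOX17 0.382 of 74 (0.516%). In SW620 replicates 1, 2 and 3, WT1 was at 13.8, 13.8 and 15.3%, UPK3B at 3.08, 2.80 and 3.10% and PAX8 at 9.08, 14.4 and 7.59% of the mean PEO4 level. In SW480 replicates 2 and 3 the shares gave 11.3 and 12.3 counts of ESR1 against 7 and 6 seen, more than the whole count. SW480 replicate 1 had 9 counts of ESR1 at an estimated share of 0%, which rests on 1 gene and reaches up to 0.820%. At its 50-gene median of 0.532% it would hold 19.5 counts of ESR1. Whether the ESR1 counts in SW480 follow the share was not tested. For EMX2 the shares gave 4.86 of 27 counts (18%) in SW480 replicate 2 and 5.27 of 16 (32.9%) in replicate 3.

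**Figure D4:**
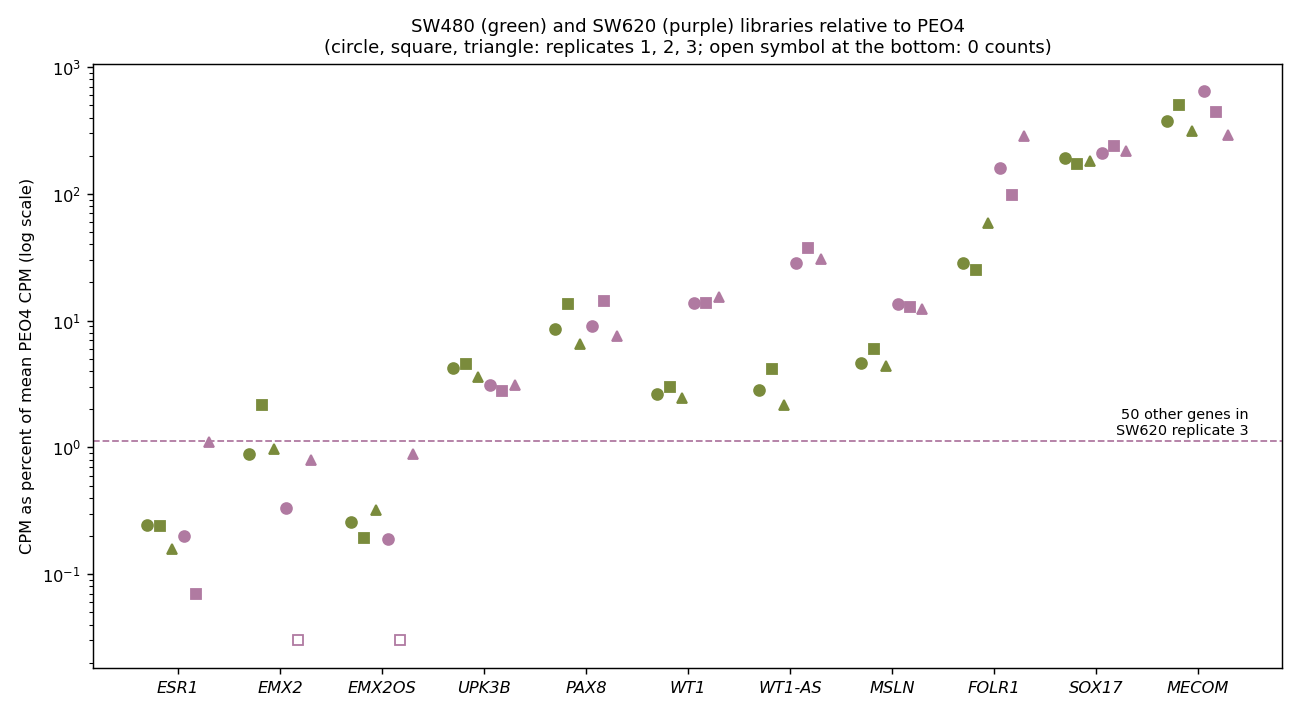
Level of lineage genes and partner genes in the 6 SW libraries as percent of the mean PEO4 level, on a log scale, with SW480 in green and SW620 in purple, replicates as circles, squares and triangles, and 0 counts as open symbols at the bottom; the dashed line is the 1.13% median of 50 other genes in SW620 replicate 3. ESR1, EMX2 and EMX2OS in SW620 replicate 3 lie near the line, while PAX8, WT1, MSLN and FOLR1 lie above it in every SW620 library.

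The calls for WT1, MSLN and FOLR1 were kept without that library. Leaving out SW620 replicate 3 gave log2 differences of 2.20 for WT1 (adjusted p = 4.59e-05), 1.25 for MSLN (0.000469) and 1.60 for FOLR1 (0.0177) by edgeR. Subtracting the estimated shares from the counts gave 2.47, 1.37 and 2.28. In the fit on the SW libraries alone, the EMX2 call between the lines depended on it. The difference became -2.95 (adjusted p = 0.0337 by edgeR) without SW620 replicate 3 and -3.25 (adjusted p = 0.0353) after subtraction, so that EMX2 was then called lower in SW620. With that library kept, EMX2 was also called lower with all 12 libraries in 1 model (-1.62, adjusted p = 0.0315 by edgeR). These calls rest on 14, 27 and 16 counts in SW480 and 5, 0 and 15 in SW620. Subtraction left SW480 replicate 1 unchanged, since its share was 0% from 1 gene, whereas the 50-gene median gave 8.38 of its 14 EMX2 counts. In the contrast of PEO4 with SW620, leaving out that library moved FOLR1 from -0.37 to 0.30 (adjusted p = 0.501 by edgeR), with no call either way, and ended the SOX17 call. It also moved ESR1 from 8.19 to 10.17 and EMX2 from 8.36 to 9.69 log2 units, and subtraction gave 10.77 and 10.27. Against SW480, subtraction moved ESR1 from 9.41 to 10.68.

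The genes whose levels followed each lineage gene most closely were found by distance of centred log2 CPM over the 12 libraries among 23457 genes. PAX8 was nearest to FAT2 (distance 0.82), CLCF1 (0.88) and AC124312.2 (0.88). UPK3B was nearest to CLDN8 (1.28), ERBB4 (1.32) and FUT9 (1.33), and ESR1 to LONRF2 (0.90), AJAP1 (1.07) and KLK5 (1.11). WT1 was nearest to LINC00565 (0.99), EMX2 to DPP6 (1.27), MSLN to SYBU (0.83), FOLR1 to SPRY1 (1.39) and SOX17 to LINC01278 (0.52). All 12 libraries enter these distances, so the split between PEO4 and the SW lines is part of each, and they are given as a description.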

How the data were processed

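Members and gene lists were chosen with earlier results of these data known. Per the submitters' processing notes, the authors used Trimmomatic 0.36, STAR 2.5.2b, featureCounts of Subread 1.5.2, DESeq2 and GRCh38, and the annotation and strand setting are not given in the sources used here. The authors deposited whole-number gene counts, which were the basis of every level and test. Their tables also hold, per the file headers, a signal per library, a log2 fold change and a raw and adjusted p-value, and only the calls were set beside those found here.

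Each comparison within a tissue was fitted on its 6 libraries, and PEO4 control with SW480 and SW620 on 9, in edgeR 4.0.16 (R 4.3.3) with filterByExpr, TMM scaling and glmQLFTest, two-sided, adjusted over all genes. The SE was the size of the log2 change over the square root of F. CPM used library totals, and levels per kilobase used GENCODE 29 exon unions, where 56898 of the 57500 gene IDs were found (485 have no symbol). Alternatives used DESeq2 1.42.0, limma-voom (limma 3.58.1), other scalings and filters, all 12 libraries, a replicate block, subtraction of a PEO4 share and leaving out each library. The edgeR fits were tested on simulated counts.

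Named genes were all 10 members, their paralogs and opposite-strand neighbours, list genes past the threshold with TGF-β, of each list up to 3 of the largest called differences between other groups, CDX2 and, for each member tested with TGF-β, up to 3 nearest genes. Some genes this rule names are not reported here. The carriers SLC19A1 and SLC46A1 and mesothelial and Müllerian genes at or near 0 were named after their values were seen. The replicates are biological per the labels, with no statement of separate cultures, so p-values measure the spread between these libraries.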

Additional observations from a re-analysis of the deposited data

How the results depend on the processing

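The TGF-β decreases of UPK3B and MSLN kept their direction and call under all 15 alternatives (log2 -1.56 to -1.33 and -0.80 to -0.70), and those of ESR1, WT1 and EMX2 kept their direction. The count of lineage genes called with TGF-β was 2 with all 12 libraries in 1 model and 3 to 5 when 1 library was left out, against 5. The count of all genes called was 922 with DESeq2, 1457 without a filter, 165 with all 12 libraries and 72 to 1080 without 1 library, lowest without control replicate 2 and highest without control replicate 1, against 431. Between SW lines all genes called ran from 4253 to 7419 without 1 library, against 6385. With all 12 libraries 5 lineage genes were called, against 3, with EMX2 (-1.62) and UPK3B (-0.50) added. All genes called also rose there, to 8418 of 23457 tested, against 6385 of 20941. Of the lineage genes, 5 were called between PEO4 and SW620 with at least 10 counts in every library, against 8, since fewer genes were then tested. Of all genes, 8667 of 14616 tested were called under that filter, against 12650 of 22936. Same-number correlations of deviations were 0.29, -0.14 and 0.48 in PEO4 and 0.02, 0.67 and 0.57 in SW. Correlations between different numbers ran from -0.49 to 0.24 in PEO4 and from -0.63 to 0.27 in SW. Several libraries thus followed their own number best, but not every one did. Whether the replicate numbers pair the samples is not settled by this, and the report's fit did not use them. With the replicate block 2102 genes and 6 lineage genes (FOLR1 added, adjusted p = 0.0151 by edgeR) were called with TGF-β, and 10667 genes and 3 lineage genes between SW lines. Signs turned only among differences without a call. With TGF-β the values without 1 library ran from -0.053 to 0.037 for WT1-AS (0.008 without a filter, 0.012 with all 12 libraries), -0.052 to 0.080 for PAX8, -0.062 to 0.262 for SOX17 and -0.024 to 0.319 for PAX8-AS1. Between SW lines they ran from -0.148 to 0.100 for PAX8-AS1 (0.031 with total counts, 0.009 with at least 10 counts in every library), -0.123 to 0.320 for PAX8 and -0.108 to 0.333 for MECOM. For PEO4 against SW480, PAX8-AS1 ran from -0.040 to 0.196 (-0.022 with upper quartile and -0.198 with total-count scaling). Against SW620 it was -0.016 and -0.229 with those scalings, and FOLR1 ran from -0.722 to 0.301, highest without SW620 replicate 3. The cause of these moves was not tested. Total-count scaling moved the median of all genes from -0.10 to -0.35 against SW480 and from -0.06 to -0.38 against SW620, and the split of calls to 4798 higher and 7984 lower (5896 and 6406 in the report's fit) and to 5116 higher and 8241 lower (6414 and 6236). Depth leaves MECOM, CALB2 and, in the SW lines, ESR1 and EMX2 near the counting floor.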
